A study of Mus musculus with 6 samples.

Results

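Planar cell polarity genes were examined in the posterior part of mouse embryos, in Fkbp8 mutants and in wildtypes. The 10 genes were Celsr1, Vangl1, Vangl2, Ptk7, Fzd3, Fzd6, Dvl1, Dvl2, Dvl3 and Scrib, out of 18540 genes with a named probe on the array. They were found as gene probes whose symbol, in the platform annotation or in the array file's own description, was a listed name. That gave 15 probes for a single gene each, and 1 further probe that is annotated to both Sirt2 and Dvl3 and was kept apart. The rule uses names only and no measured value, although the genes were chosen with earlier results of these data known.

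Tissue from 3 Fkbp8 mutants (a, b and c) was set against tissue from 3 wildtypes (d, e and f), all at embryonic day 9.5. Carriers of 1 mutant copy were crossed to each other, and the tissue lay just behind the forelimb bud. The labels name neither the allele nor the strain, and they do not settle whether mutant a was 1 embryo or several. Each sample was read on its own CodeLink Mouse Whole Genome array, a 1-colour array of oligonucleotide probes. The series' title ties Fkbp8 to cell survival and dorsoventral patterning in the posterior neural tube. The question addressed here is whether transcripts of polarity genes differ in that region.

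Planar cell polarity is the alignment of cells within the plane of a tissue. Membrane proteins of the Vangl and Frizzled families gather on opposite sides of a cell, with Dishevelled proteins bound to the Frizzled side. In the mouse the pathway drives convergent extension, the narrowing and lengthening of the neural plate before it folds, and embryos that lack Vangl2, Celsr1, Scrib or Ptk7 fail to close the neural tube along much of the body axis. The pathway acts largely through where its proteins sit in a cell, which an array of transcripts does not measure.

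Fkbp8 itself checked the labels. Its log2 intensity was 6.28, 6.30 and 6.11 in mutants a, b and c, against 10.57, 10.74 and 10.67 in wildtypes d, e and f. The probe was not above background on any mutant array, and the gene was at least 18.8-fold lower in mutants (limma adjusted p = 1.18e-07). Between 57.6% and 61.8% of the 34967 gene probes were above background per array, lowest in mutant c. All 8 caudal Hox and Cdx markers were above background on at least 3 of the 6 arrays. Markers of more anterior tissue were mixed. Otx2 of the head and Tnnt2, Nkx2-5 and Myl2 of the heart were above background on 0 of 6 arrays, while Six3 and Emx2 of the head, Myl7 of the heart and Tbx5 of the forelimb were above it on all 6. The Y-linked Eif2s3y exceeded background in 3 of 3 mutants and 0 of 3 wildtypes, and 1 of the 2 probes of Xist in 0 of 3 mutants and 3 of 3 wildtypes. The Y-linked Kdm5d exceeded it in all 6 samples, at a mean log2 intensity of 8.28 in mutants and 7.65 in wildtypes. Genotype and sex-linked expression therefore cannot be told apart for any gene below, although 0 of the 10 polarity genes lie on chromosome X or Y.

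None of the 10 genes passed the test between mutants and wildtypes, and Ptk7 came nearest. In limma 0 of 15 probes reached an adjusted p under 0.05, against 0.12% of the 21688 probes tested over the whole array (0.0646% higher and 0.0553% lower in mutants). At an unadjusted p under 0.05 there was 1 of 15 (6.67%), Ptk7, against 12.2% of all probes tested (6.43% higher and 5.81% lower in mutants). With 1 array left out that count was 3 of 15 without mutant c, 2 of 15 without mutant a or wildtype f, and 1 of 15 otherwise. The share over all probes was not taken in those fits, so these counts have no background to be read against. The groups of values did not overlap for 1 of 15 probes, again Ptk7, against 19.7% of all, and in 11.2% of all every mutant lay above every wildtype. All 15 probes met the filter on dim probes, and 13 were above background on all 6 arrays. The median log2 fold change over the 15 probes was 0.045, with 10 positive and 5 negative, and over all probes tested it was 0.0085, with 52.4% positive. In bulk tissue, fewer cells of a type and less RNA per cell cannot be told apart.

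The intervals show what size of change this fit leaves room for. The 95% limma interval lay within a 1.5-fold change in either direction for 13 of 15 probes, and within 2-fold for all 15. The 2 wider ones were those of Ptk7, whose upper end was 1.52-fold, and of Celsr1, whose lower end was a ratio of 0.584. To pass the threshold over all probes, an estimate had to reach 1.47-fold at the most precise member probe and 3.42-fold at Celsr1. The median was 1.75-fold. These are cut-offs on the estimates of this fit and not a detection limit, so smaller true changes could have been missed.

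**Figure D1:**
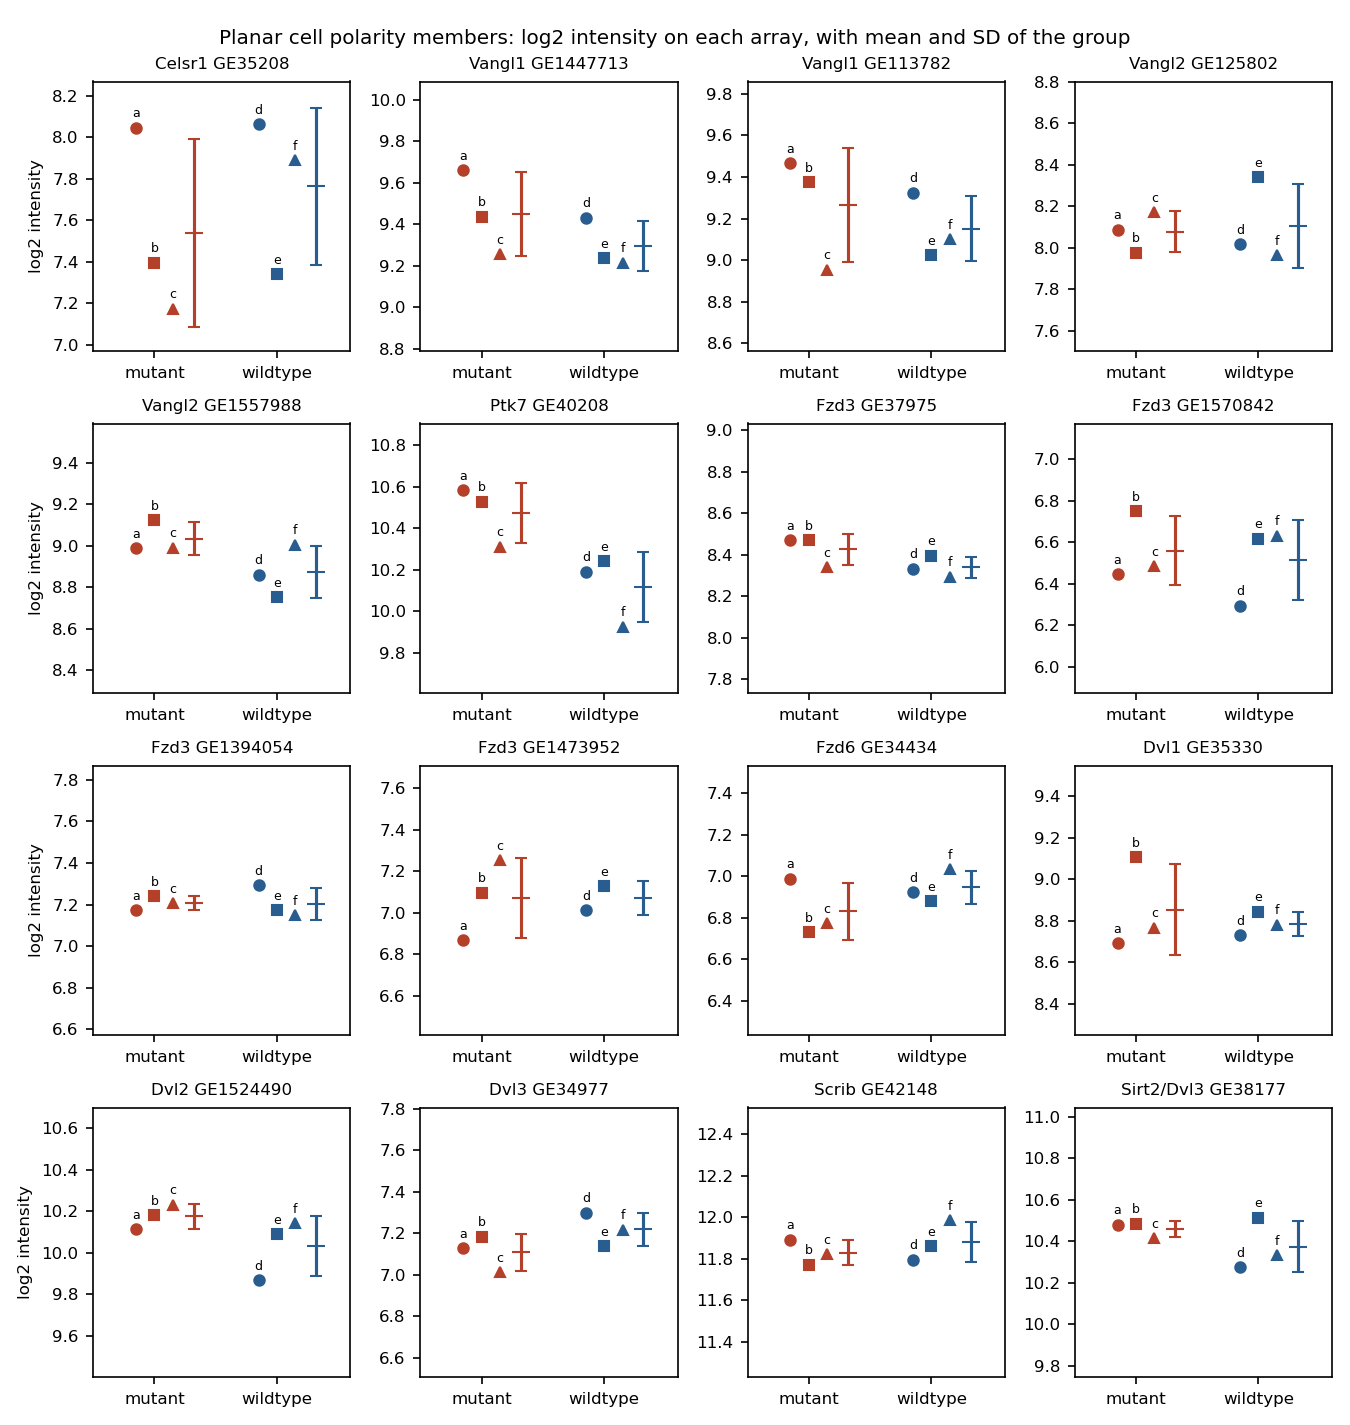
Log2 intensity (y axis, a span of equal size in each panel) of the 15 polarity gene probes and the Sirt2/Dvl3 probe in mutants a to c (left) and wildtypes d to f (right). Points are arrays and bars are the group mean with SD; Ptk7 is the panel in which every mutant lies above every wildtype, and Celsr1 the panel with the widest spread.

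Ptk7 encodes a catalytically inactive receptor tyrosine kinase that acts as a co-receptor in polarity signalling. Its log2 intensity was 10.58, 10.53 and 10.31 in mutants a, b and c, against 10.19, 10.24 and 9.93 in wildtypes d, e and f. The deposited values, in multiples of each array's median, were 25.2, 23.0 and 19.5 in mutants and 18.0, 18.7 and 14.6 in wildtypes. Every mutant lay above every wildtype, with mutant c the lowest mutant and wildtype e the highest wildtype. The means were 10.47 ± 0.14 in mutants and 10.12 ± 0.17 in wildtypes (SD, n = 3 each), and the log2 fold change was 0.35 (SE 0.11, interval 0.10 to 0.61, limma adjusted p = 0.288). Its unadjusted p of 0.0113 ranked 852 of 21688. An exact two-sided permutation test of its 6 values gave p = 0.1, the smallest that 3 against 3 allows, so that test could not pass. Ptk7 did not pass in limma after adjustment, although its 3 mutant values were the higher ones.

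The named genes whose 6 values followed those of Ptk7 most closely were Stradb, Prcp and Pttg1ip. Their Pearson correlations with Ptk7 over the 6 arrays were 0.996, 0.995 and 0.994, given as a description of values that share arrays and normalization. Stradb had log2 intensities of 8.88, 8.81 and 8.71 in mutants, against 8.65, 8.67 and 8.47 in wildtypes. None of the 3 passed the test either (log2 fold changes of 0.21, 0.23 and 0.14, adjusted p = 0.393, 0.38 and 0.474). In all, 389 of 17906 probes above background on every array (2.17%) had a correlation of at least 0.9 with Ptk7. For the other polarity gene probes above background on every array, that count ran from 66 (0.369%) to 243 (1.36%). Both ends were probes of Fzd3, GE1394054 and GE37975.

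Celsr1 encodes an atypical cadherin that joins polarity complexes across the border between neighbouring cells. Its log2 intensity was 8.05, 7.40 and 7.17 in mutants a, b and c, against 8.06, 7.34 and 7.89 in wildtypes d, e and f. In multiples of the array median, the deposited values were 3.46, 1.79 and 1.40 in mutants and 3.40, 1.69 and 2.92 in wildtypes. Both groups held high and low samples, and the groups overlapped. The residual SD within groups was 0.42, higher than at 98.5% of all probes tested, where the median was 0.11. The highest mutant, a, and the highest wildtype, d, carry header names that share a leading number, and the headers do not explain it. Whether that number bears on the spread of Celsr1 was not tested. The log2 fold change was -0.23 (SE 0.24, adjusted p = 0.732). Single arrays decided its size, with -0.48 without mutant a, -0.44 without wildtype e, -0.08 without wildtype d and -0.04 without mutant c.

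**Figure D2:**
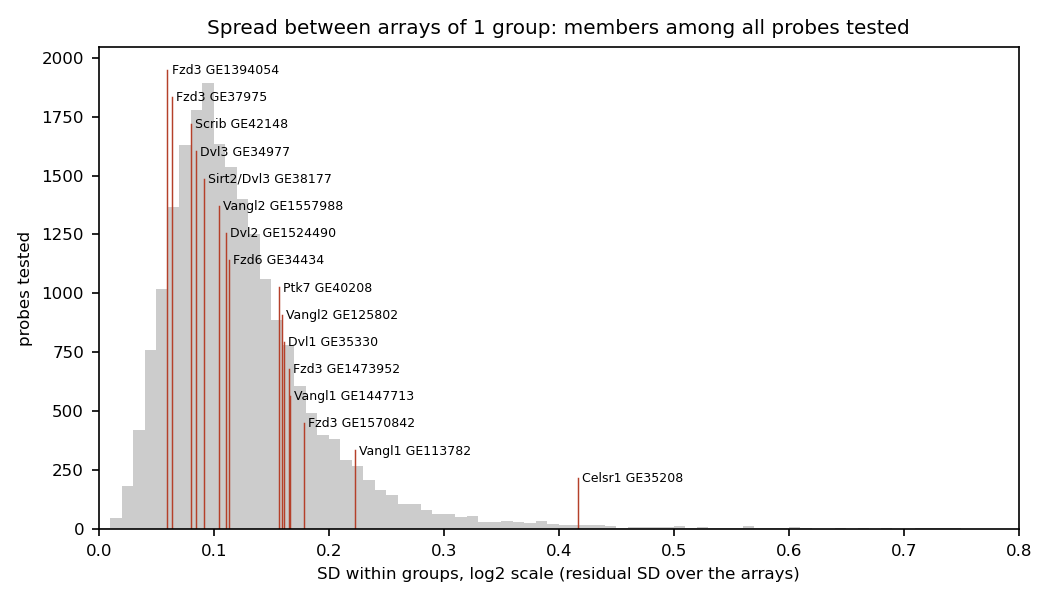
Number of tested probes (grey bars) by their SD within groups on the log2 scale (x axis, cut at 0.8, which leaves out 102 probes), with red lines for the polarity gene probes and the Sirt2/Dvl3 probe. Celsr1 lies apart at 0.42, and the others lie between 0.06 and 0.22.

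Vangl1 and Vangl2 encode related membrane proteins that bind Dishevelled and Prickle proteins, and Vangl2 is the gene mutated in loop-tail mice. Vangl1 had a pair of probes that ordered the arrays in much the same way. GE1447713 read 9.66, 9.44 and 9.26 in mutants and 9.43, 9.24 and 9.21 in wildtypes (log2 intensity). GE113782 read 9.47, 9.38 and 8.95 in mutants and 9.32, 9.02 and 9.10 in wildtypes. At both probes mutant a was the highest sample and mutant c the lowest mutant, and the groups overlapped. The log2 fold changes were 0.16 (SE 0.11, adjusted p = 0.605) and 0.12 (SE 0.14, adjusted p = 0.772), and they turned on single arrays. They were 0.05 and 0.015 without mutant a, and 0.25 and 0.27 without mutant c (adjusted p = 0.373 and 0.342).

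The probes of Vangl2 differed in sign. GE125802, designed on its reference transcript, read 8.09, 7.98 and 8.17 in mutants and 8.02, 8.34 and 7.96 in wildtypes, and its log2 fold change was -0.028 (SE 0.11, adjusted p = 0.941). GE1557988, designed on a cDNA clone from embryonic spinal cord, read 8.99, 9.12 and 8.99 in mutants and 8.86, 8.75 and 9.003 in wildtypes, which gave 0.16 (SE 0.09, adjusted p = 0.496). Wildtype e was the highest sample at the first probe and the lowest at the second. Neither probe passed, and their intervals (-0.28 to 0.23, and -0.04 to 0.36) overlapped.

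Fzd3 and Fzd6 encode Frizzled receptors that act redundantly in closing the mouse neural tube. Fzd3 had 4 probes, with log2 fold changes of 0.09 (GE37975), 0.045 (GE1570842), 0.0027 (GE1394054) and 0.0011 (GE1473952). GE37975, designed on the reference transcript, read 8.47, 8.47 and 8.34 in mutants and 8.33, 8.39 and 8.29 in wildtypes (SE 0.08, adjusted p = 0.674). GE1570842 exceeded background in 1 of 3 mutants and 2 of 3 wildtypes, and the fit of GE1473952 lacked wildtype f, whose spot was masked. All 4 intervals held 0, and the tightest, at GE1394054, ran from a ratio of 0.889 to 1.13. The Fzd6 probe was dim, at 6.99, 6.73 and 6.77 in mutants and 6.92, 6.88 and 7.04 in wildtypes. The groups overlapped, and its log2 fold change was -0.12 (SE 0.09, adjusted p = 0.638). It was -0.23 with floored values and -0.21 with the deposited table, and -0.19 to -0.07 with 1 array left out.

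Dvl1, Dvl2 and Dvl3 encode the Dishevelled proteins, which carry Frizzled signals both to the cytoskeleton and to beta-catenin. Dvl1 read 8.69, 9.10 and 8.77 in mutants, against 8.73, 8.84 and 8.78 in wildtypes. Mutant b stood above the other 5 samples, and the log2 fold change of 0.07 (SE 0.11, adjusted p = 0.833) was -0.06 without it and 0.15 without mutant a. The probe taken for Dvl2 was named only by a description that its EST resembles Dvl-2 mRNA. It read 10.12, 10.18 and 10.23 in mutants, against 9.87, 10.09 and 10.14 in wildtypes, and differed by 0.14 log2 units (SE 0.09, adjusted p = 0.557). Its groups overlapped, since wildtype f lay above mutant a, and the difference was 0.06 without wildtype d. Dvl3 read 7.13, 7.18 and 7.01 in mutants, against 7.30, 7.14 and 7.22 in wildtypes, and differed by -0.11 log2 units (SE 0.08, adjusted p = 0.612). With other processing it ran from -0.19 to -0.06. The probe shared between Sirt2 and Dvl3 differed in the other direction, by 0.09 (SE 0.08, adjusted p = 0.71), and it cannot be assigned to either gene.

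Scrib encodes a scaffold protein of the basolateral membrane that binds Vangl2. Its probe read 11.89, 11.77 and 11.82 in mutants, against 11.80, 11.86 and 11.99 in wildtypes. The groups overlapped, with mutant b the lowest sample and wildtype f the highest. The log2 fold change was -0.05 (SE 0.08, interval -0.24 to 0.13, adjusted p = 0.822), and with median centring in place of quantile normalization it was 0.02. The interval spans ratios of 0.848 to 1.10.

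**Figure D3:**
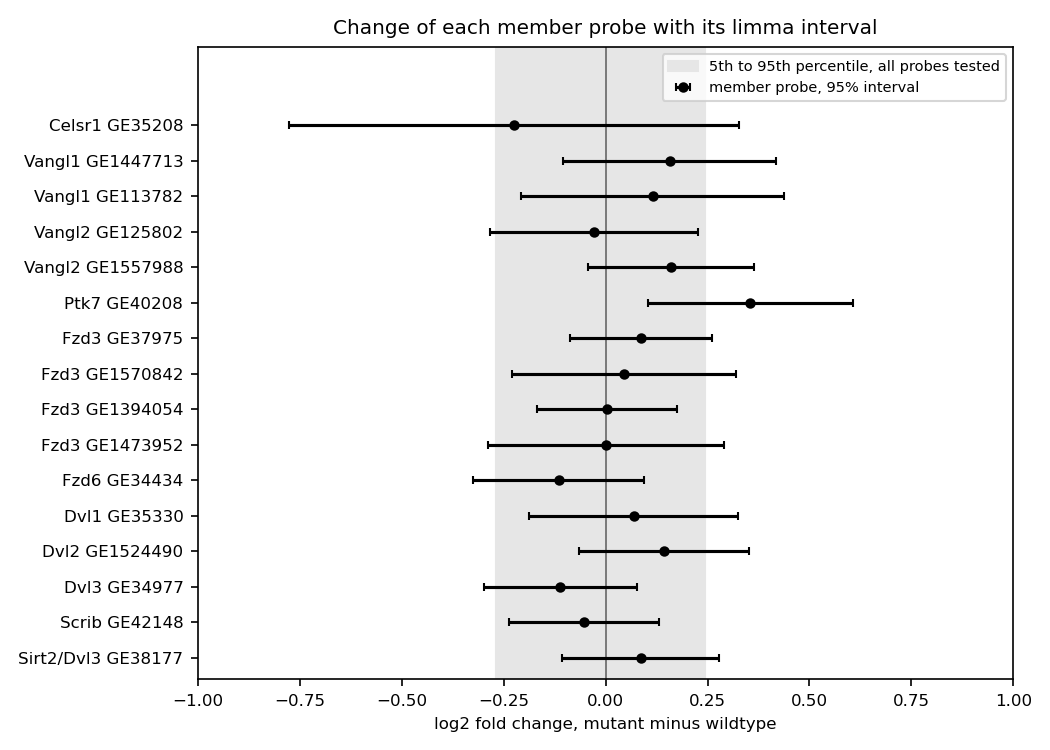
Log2 fold change, mutant minus wildtype (x axis), of each polarity gene probe and of the Sirt2/Dvl3 probe, as points with 95% limma intervals; the grey band is the 5th to 95th percentile of all probes tested (-0.27 to 0.24). Of the 15 polarity gene intervals 14 hold 0, and that of Ptk7 runs from 0.10 to 0.61.

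A wider list of 63 genes that act with these 10 was read from the same fit, and none of its genes passed. Of them 56 had a named probe and 51 were tested, with 61 probes. In limma 0 of 61 passed (0.12% over all probes tested), and 7 of 61 (11.5%) had an unadjusted p under 0.05, against 12.2% of all. With 1 array left out that count ran from 3 without mutant b to 11 without mutant a, again with no share over all probes beside it. The 7 were 2 with a positive and 5 with a negative log2 fold change. The median log2 fold change of the list was -0.013. The groups of values did not overlap for 10 of 61 probes (16.4%), against 19.7% of all probes tested. Among the genes named below, these were probes of Lrp6, Dchs1, Fat4, Myh10, Intu, Dlg3 and Arfrp1.

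Of the ligands and co-receptors, 3 of 8 probes had an unadjusted p under 0.05. The share was 12.2% of all probes tested and 11.5% of the wider list. The Fat and Dachsous cadherins had 2 of 4, the regulators of core proteins 1 of 10 and the downstream effectors of Dishevelled 1 of 14. Each remaining group had 0, so the ligands and co-receptors were the highest count among several small groups. No test of this group of genes was run. Lrp6 encodes a Wnt co-receptor of the beta-catenin branch that also affects polarity signalling. It read 8.03, 8.37 and 8.34 in mutants, against 7.84, 7.83 and 7.85 in wildtypes, and every mutant lay above every wildtype (log2 fold change 0.41, SE 0.10, adjusted p = 0.237). Lrp6 was 0.35 without mutant b and 0.52 without mutant a (limma adjusted p = 0.387 and 0.0874). Wnt5a, a noncanonical ligand made strongly in the tailbud, read 8.81, 8.31 and 8.92 in mutants, against 9.25, 8.91 and 9.28 in wildtypes. Its groups overlapped by the values of mutant c and wildtype e. Its log2 fold change was -0.46 (SE 0.16, adjusted p = 0.331), -0.28 without mutant b and -0.58 without either mutant c or wildtype e. Its paralogue Wnt5b, named after its values were seen, ranged from 6.22 to 7.63 in mutants and from 7.43 to 8.08 in wildtypes (log2 fold change -0.79, SE 0.32, adjusted p = 0.377). Wnt5b exceeded background in 2 of 3 mutants and 3 of 3 wildtypes. Its lowest value, 6.22 in mutant a, was as low as undetected Fkbp8 in mutants (6.11 to 6.30). The residual SD of Wnt5b was higher than at 99.2% of all probes tested. None of the 3 genes passed the test.

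Among the Fat and Dachsous cadherins, which form a polarity system of their own, Dchs1 differed by -0.29 log2 units (SE 0.08, adjusted p = 0.257). Dchs1 read 8.90, 8.72 and 8.90 in mutants, against 9.13, 9.10 and 9.14 in wildtypes, so that every mutant lay below every wildtype. Fat4, which binds Dchs1 on the neighbouring cell, differed in the other direction, by 0.46 (SE 0.14, adjusted p = 0.285), in a fit without mutant c, whose spot was masked. The difference of Fat4 was 0.25 without mutant b, which left mutant a alone, and 0.67 without mutant a, which left mutant b alone. Neither gene passed.

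None of the remaining groups held a gene that passed. Of the regulators of core proteins, Csnk1d, a kinase of Dishevelled, had a log2 fold change of -0.29 (adjusted p = 0.344) and Arfrp1, needed for Vangl2 to leave the Golgi, -0.16 (adjusted p = 0.421). Of the effectors, non-muscle myosin Myh10 had -0.37 (adjusted p = 0.363, fitted without mutant a) and the kinase Rock2 -0.24 (adjusted p = 0.415). Myh10 was -0.61 without mutant c and -0.13 without mutant b. Of the other core proteins, Prickle2 had 0.08 and Fzd7 -0.08 (adjusted p = 0.706 and 0.716), and of the ciliary effectors Intu had 0.15 and Rab23 -0.19 (adjusted p = 0.475 and 0.54). Rab23 was -0.07 without mutant b, Prickle2 was 0.023 and Fzd7 -0.04 without wildtype d. The partners of Scrib with the smallest p were Llgl1 (0.28, adjusted p = 0.522, 0.10 without mutant b and 0.47 without mutant c) and the X-linked Dlg3 (0.09, adjusted p = 0.618), and Grhl3, a transcription factor needed to close the spinal neural tube, had -0.037 (adjusted p = 0.886). The dimmer probes of Intu (GE1540988, -0.035) and Dlg3 (GE111415, -0.028) had the other sign from the brighter ones, and that of Arfrp1 (GE38672) was -0.013.

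**Figure D4:**
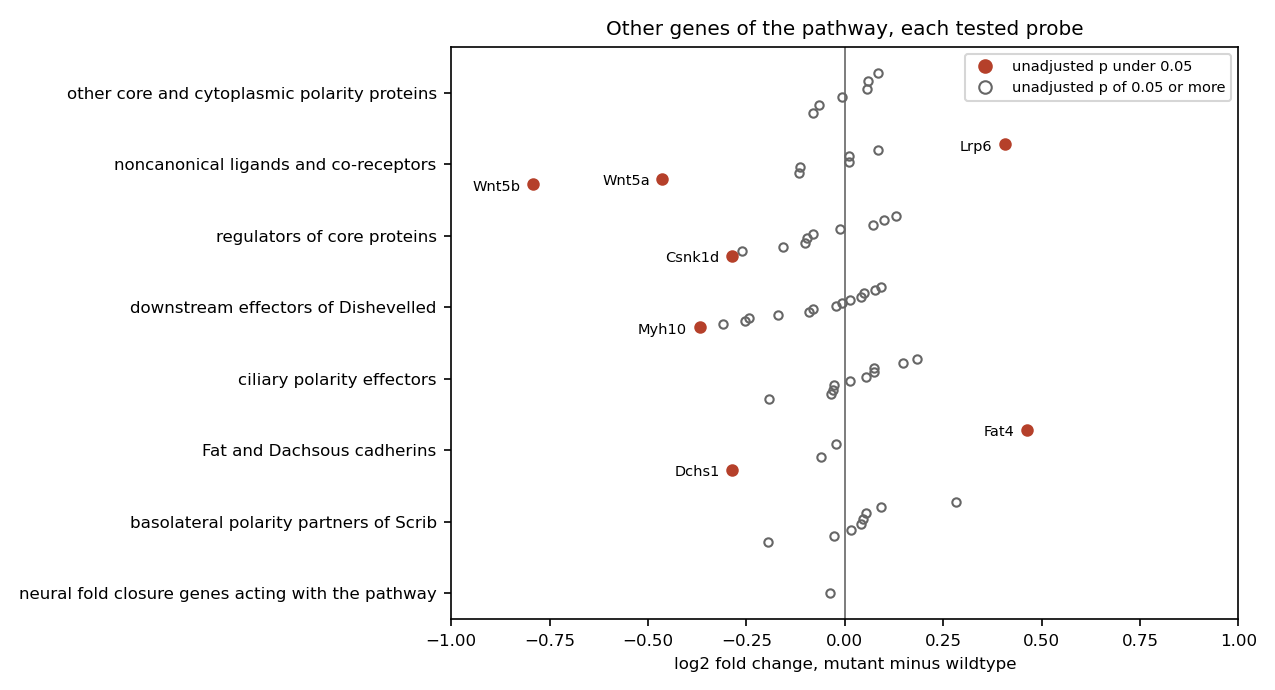
Log2 fold change, mutant minus wildtype (x axis), of each tested probe of the wider list, by group of genes (y axis); filled red points have an unadjusted p under 0.05. These are Lrp6, Fat4, Dchs1, Csnk1d, Myh10, Wnt5a and Wnt5b, and none passed after adjustment.

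Cell-type markers were set beside these values. The summed intensity of 5 neural tube markers, on the linear scale, ranged from 2464 to 2970 in mutants and from 3254 to 3430 in wildtypes, and all 5 genes were detected. That of the notochord and floor plate markers, 2 of 3 with a named probe and both detected, ranged from 782 to 1001 in mutants and from 602 to 637 in wildtypes. That of the 4 neural crest markers, all detected, ranged from 1403 to 1471 in mutants and from 1568 to 1826 in wildtypes. The heart markers, of which 1 of 4 with a named probe was detected, summed to between 676 and 729 in mutants and between 636 and 670 in wildtypes. The 4 surface ectoderm and epithelium markers with a named probe, all detected, overlapped, at 2664 to 2907 in mutants and 2614 to 2767 in wildtypes, and so did the groups' sums for the other tissue lists. Among single probes the groups did not overlap for 19.7% of all tested, and no such share was taken for sums of markers. The part of these markers in the values of the polarity genes was not tested.

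**Figure D5:**
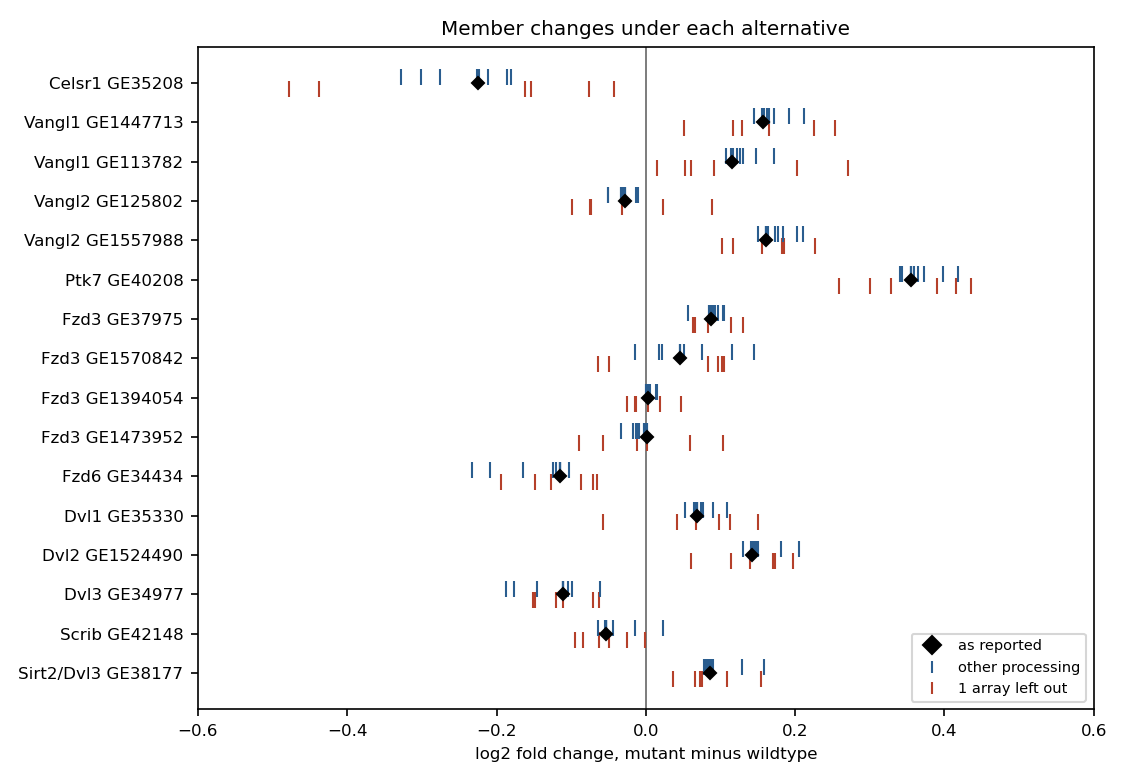
Log2 fold change, mutant minus wildtype (x axis), of each polarity gene probe and the Sirt2/Dvl3 probe as reported (diamonds), under other processing (blue ticks) and with 1 array left out (red ticks). Ptk7 stays between 0.26 and 0.44, and Celsr1 spreads from -0.48 to -0.04.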

How the data were processed

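Spots were quantified with CodeLink Expression Analysis 4.1.0.29054, per the file headers, as linear intensity of the spot mean and of the local background median. The deposited normalized intensity, equal to the values of the series table, was spot mean minus background median divided by 1 factor per array. Each of the 6 arrays had its own slide, so no slide block could be fitted.

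Background was corrected with normexp (offset 50), control spots were dropped, 339 to 508 spots per array with a flag for contamination, irregular shape or masking were left out, and the log2 intensities were then quantile-normalized. Probes that the scanner software marked good or saturated on at least 3 of 6 arrays, and usable in at least 2 samples of each group, entered a two-sided limma 3.58.1 test in R 4.3.3. Adjusted p-values (Benjamini-Hochberg) ran over all 21688 probes, at a threshold of 0.05. The offset shrinks the fold changes of dim genes. A probe below background on all arrays of a group was given a bound against the lowest signal above background. Of 34967 gene probes, 22298 had 1 symbol, through the platform annotation and the RefSeq table of GRCm38.p6. The genes and lists were chosen with earlier results of these data known. Named genes were the 10 members, Fkbp8, any list gene past the threshold, the 2 of each group with the smallest p at the brightest probe, and the 3 genes most like the member with the smallest p. Nothing states that samples of a group came from separate litters, so the p-values cover only how much these 6 samples vary. Alternatives covered background, normalization, filters, spot flags, variance prior, array weights and leaving out each array.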

Additional observations from a re-analysis of the deposited data

How the results depend on the processing

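Over 17 alternatives (6 leaving out 1 array and 11 of processing), 0 polarity gene probes and 0 probes of the wider list passed, and the smallest adjusted p of a polarity gene probe was 0.223 (Ptk7, above background on all 6 arrays). The median log2 fold change of the polarity gene probes ran from -0.011 to 0.09, and Fkbp8 passed in each setting in which it was tested. The count over all probes, 26, was 16 with median centring, 13 with background-subtracted values floored at 1, 16 with the deposited series table and 16 with the filter on all 6 arrays, and 11 to 39 with 1 array left out. The direction held in every setting for 9 of 15 polarity gene probes, Ptk7 (0.26 to 0.44) among them. The other 6 lay near 0. Fzd3 GE1473952 was -0.0021 with median centring, -0.018 with cyclic loess, -0.0021 with offset 16, -0.0085 with floored values, -0.033 with no background correction, -0.014 with the deposited table and -0.011 with array weights, and -0.089 to 0.10 with 1 array left out. With no background correction Fzd3 GE1570842 was -0.014, and with median centring Scrib was 0.023. With 1 array left out, Fzd3 GE1570842 ran from -0.065 to 0.10, Fzd3 GE1394054 from -0.026 to 0.047, Vangl2 GE125802 from -0.099 to 0.089, Dvl1 from -0.057 to 0.15 and Grhl3 from -0.083 to 0.015. The cause of these shifts was not tested. No paired analysis was possible because the groups share no replicate letters and the header numbers join only mutant a with wildtype d, and the slide block was not run because each slide held 1 array. Fzd3 GE1570842 was above background on 3 of 6 arrays, which limits what its values can show.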
